A study of Rattus norvegicus with 13 samples.

Results

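The genes described here encode the nutrient solute carriers of the rat mammary gland, the membrane proteins that move amino acids, sugars, monocarboxylates and fatty acids in and out of cells. They were chosen by symbol alone, as the measured members of the families Slc1, Slc2, Slc3, Slc5, Slc6, Slc7, Slc16, Slc27, Slc36, Slc38 and Slc43. The rule found 70 of the 14790 genes in the table. Of these, 69 are carriers or carrier subunits. The remaining gene, *Slc7a6os*, is no carrier and took its symbol from its position on the strand opposite to *Slc7a6*. It is not stated whether the counting used strand, so reads from any stretch that this pair shares could not be assigned with certainty.

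RNA-seq was performed on mammary epithelial cells of Wistar-Furth rats, an inbred strain susceptible to mammary cancer. The 6 rats taken at 6 weeks of age were within WOS, the window of susceptibility in which the developing gland responds most to carcinogens, and the 7 rats taken at 10 weeks were outside WOS. All were untreated females, and each library came from 1 rat, so that p-values measure the spread between these rats. Per the sample labels, the cells were ductal fragments held back by a 40 μm filter after collagenase digestion of abdominal and inguinal glands, a preparation enriched in epithelium that can keep stromal and immune cells. The study's methods name differential centrifugation in place of the filter for these libraries.

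Carriers fall into substrate classes. Sodium-coupled carriers of the Slc5 and Slc38 families pull sugars, monocarboxylates or small neutral amino acids into the cell against a gradient, while Slc2 glucose transporters and Slc16 proteins let their substrates follow the gradient. Many Slc7 light chains work only as pairs with the heavy chain *Slc3a2*, and the mammary epithelium uses all of these routes to supply growth and, later, milk synthesis.

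Values are normalized counts, that is, RSEM counts scaled by a factor for each library and rounded. They summed to between 13261906 and 15659533 in the 6-week rats and to between 13766735 and 15402814 in the 10-week rats. The scaling hides the read depth. Gaps among the low values, counted over the integers 1 to 30, were present in 7 libraries. Rat 78 at 10 weeks lacked 16 of these integers and rat 80 at 6 weeks lacked 15, so low values of these rats are coarse. The values are not set per transcript length, and a gene was compared only with itself between ages.

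For the carriers on which the comparison turned, the 250 bases before the gene start were read from RefSeq promoters on GRCr8, a later build than the one used for counting. Promoters were available for 51 of the 70 members and are shown for *Slc5a1*, *Slc5a8* and *Slc6a6*, which were higher at 10 weeks, and for the neighbours *Slc38a1*, *Slc38a2* and *Slc38a4*, of which *Slc38a2* did not pass the test below. *Slc5a9* had no entry. Capitals mark matches, on either strand, to 6 motifs, namely the STAT motif TTCNNNGAA, the ATF4 composite element TGATGNAA, the E-box CACGTG, the TATA box TATAAA, the NFAT core TGGAAA and the Sp1 GC box GGGCGG. TTCNNNGAA can share bases with the NFAT core.
Slc5a1 (chr14:81843085-81843334, minus strand): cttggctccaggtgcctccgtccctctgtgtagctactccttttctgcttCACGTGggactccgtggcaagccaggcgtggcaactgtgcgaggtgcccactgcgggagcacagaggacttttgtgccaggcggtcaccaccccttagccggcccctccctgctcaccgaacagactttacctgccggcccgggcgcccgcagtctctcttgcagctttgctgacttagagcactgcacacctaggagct
Slc5a8 (chr7:25160030-25160279, plus strand): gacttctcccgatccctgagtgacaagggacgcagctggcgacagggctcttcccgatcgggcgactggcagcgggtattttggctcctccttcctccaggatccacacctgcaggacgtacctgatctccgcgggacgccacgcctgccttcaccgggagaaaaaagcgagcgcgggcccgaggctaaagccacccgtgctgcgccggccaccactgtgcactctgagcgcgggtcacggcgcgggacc
Slc6a6 (chr4:125752252-125752501, plus strand): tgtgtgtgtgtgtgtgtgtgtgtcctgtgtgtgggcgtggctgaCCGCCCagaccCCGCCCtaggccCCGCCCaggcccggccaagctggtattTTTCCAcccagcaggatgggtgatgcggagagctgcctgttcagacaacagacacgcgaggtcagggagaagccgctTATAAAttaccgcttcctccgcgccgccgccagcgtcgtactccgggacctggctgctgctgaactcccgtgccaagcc
Slc38a1 (chr7:129681402-129681651, minus strand): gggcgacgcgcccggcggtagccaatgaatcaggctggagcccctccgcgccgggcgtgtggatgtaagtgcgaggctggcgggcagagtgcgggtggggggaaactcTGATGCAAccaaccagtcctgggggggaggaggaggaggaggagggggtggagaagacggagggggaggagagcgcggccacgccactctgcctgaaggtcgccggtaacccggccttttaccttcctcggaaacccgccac
Slc38a2 (chr7:129742620-129742869, minus strand): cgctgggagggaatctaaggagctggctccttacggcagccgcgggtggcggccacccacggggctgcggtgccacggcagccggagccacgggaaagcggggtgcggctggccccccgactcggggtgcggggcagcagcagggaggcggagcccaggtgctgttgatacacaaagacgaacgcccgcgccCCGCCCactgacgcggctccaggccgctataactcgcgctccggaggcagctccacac
Slc38a4 (chr7:130082170-130082419, minus strand): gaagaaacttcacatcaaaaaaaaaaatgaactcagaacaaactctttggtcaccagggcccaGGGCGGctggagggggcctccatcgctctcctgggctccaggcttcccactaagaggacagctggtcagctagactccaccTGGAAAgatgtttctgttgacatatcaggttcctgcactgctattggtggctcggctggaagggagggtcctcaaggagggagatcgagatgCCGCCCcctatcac

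The *Slc5a1* promoter held 1 CACGTG, starting 200 bases before the gene start, and the *Slc5a8* promoter held none of the 6 motifs. Among all 27457 rat promoters of the same length, 5.79% held CACGTG, and among the 51 members with an entry 8 did (15.7%). The *Slc6a6* promoter held TATAAA, a motif of 13.1% of all promoters, and 3 copies of GGGCGG. The latter was found in 24 of 51 members (47.1%) and in 32.4% of all promoters. Of the 14 members called in the test below, 10 had a promoter entry. Among these 10, *Slc38a1* was the only one with TGATGNAA, which 3 of 51 members and 3.27% of all promoters carried. TTCNNNGAA was found in 2 of 51 members, none of them called, and in 7.52% of all promoters. TGGAAA, present in 19.5% of all promoters, was found in 11 of 51 members. A match only describes these letters.

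The comparison asked which nutrient carriers differed between rats within WOS and rats outside WOS. By limma on log2(normalized count + 1), with p adjusted over all genes and a threshold of 0.05, 10 of 70 members were higher at 6 weeks, where 8.71% of all genes were, and 4 were higher at 10 weeks, where 7.39% of all genes were. In either direction 14 members passed (20%), beside 16.1% of all genes. The median log2 fold change, 6 weeks over 10 weeks, was 0.17 over the members and 0.028 over all genes. Of the 164 other genes with an Slc symbol, 24 passed (14.6%), and of the 35 ABC transporter genes 10 passed (28.6%). Whether these shares differ was not tested. In these bulk samples fewer cells of a type and less RNA per cell cannot be told apart.

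By substrate class, the counts in each direction were as follows. Of 35 amino acid carriers, 7 were higher at 6 weeks and none at 10 weeks, with a median log2 fold change of 0.18 and a range from -0.46 to 1.47. Leaving out rat 71, 72 or 84 gave 4 higher at 6 weeks. Calls over all genes fell as well, from 2381 to 1769, 1636 and 1488 in these fits. Sample quality weights gave 4 higher at 10 weeks, and the first residual component as a term gave 1. Among 11 sugar and polyol carriers, 2 were higher at each age. The 9 monocarboxylate carriers held 1 gene higher at 10 weeks, and the 4 fatty acid carriers held none that passed. Of 10 members with other substrates, such as creatine, taurine, urate or thyroid hormone, 1 passed in each direction. By family, 4 of 5 measured Slc5 members passed, 3 of them higher at 10 weeks, and 3 of 9 Slc38 members passed, all higher at 6 weeks. The difference between the classes was not tested.

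**Figure D1:**
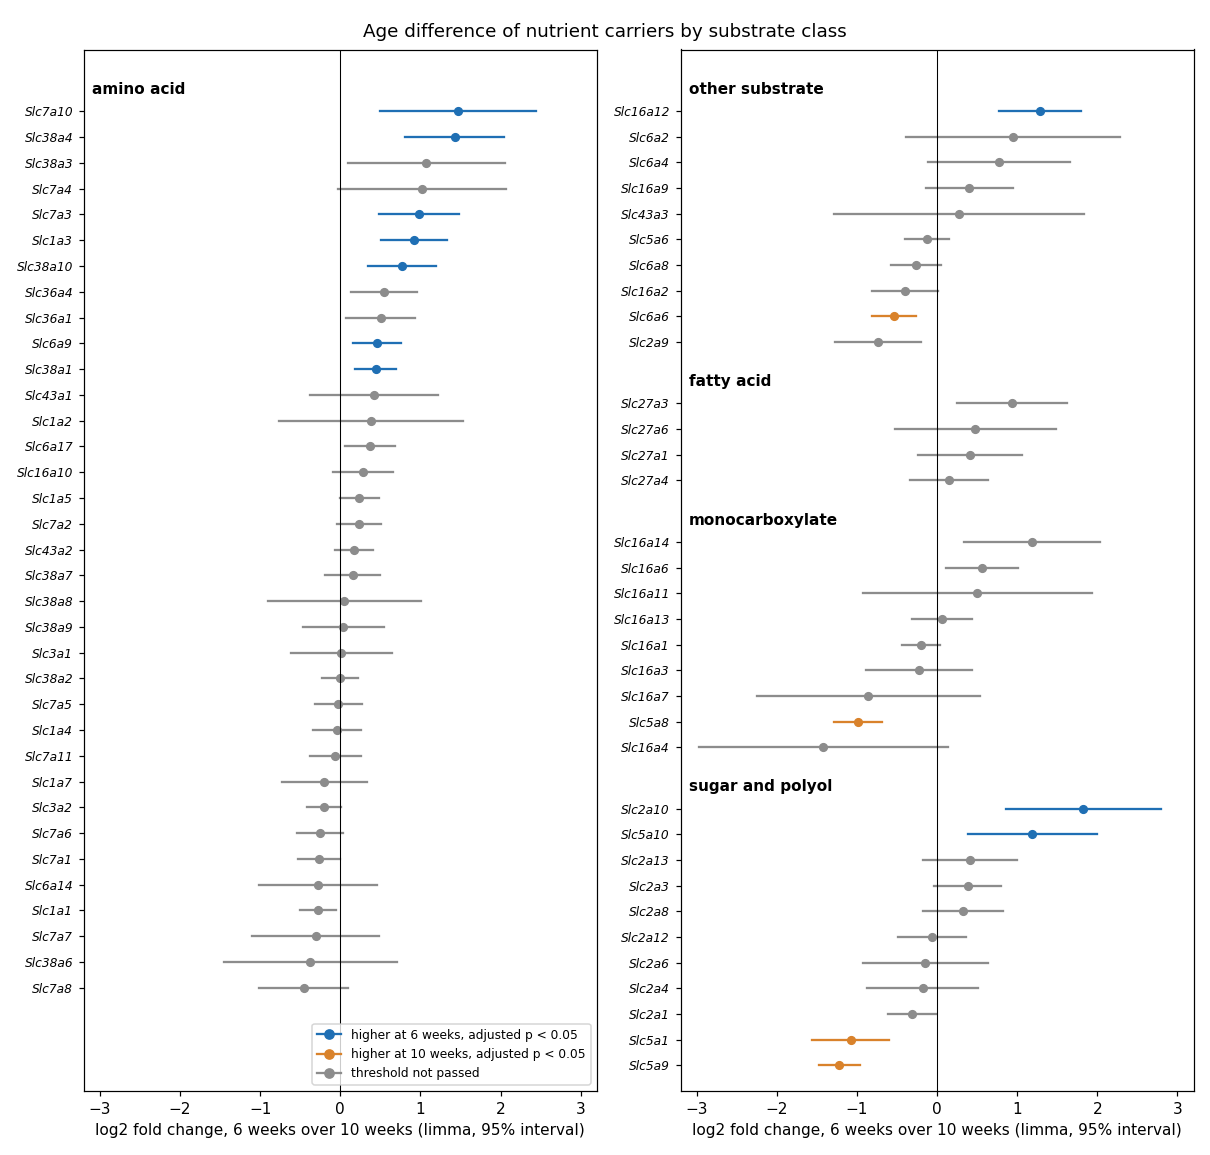
Log2 fold change of 69 carriers, 6 weeks over 10 weeks, with its 95% interval from limma on the horizontal axis, by substrate class. Blue points passed the threshold with higher values at 6 weeks, orange points with higher values at 10 weeks and grey points did not pass. The orange points are *Slc5a9*, *Slc5a1*, *Slc5a8* and *Slc6a6*. Of the 10 blue points 7 are amino acid carriers, as are 35 of all 69 points.

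The carriers that were lower within WOS were all coupled to sodium, as were some that were higher within WOS, such as *Slc38a4* and *Slc5a10*. *Slc5a9* encodes SGLT4, a sodium-coupled carrier of mannose and other sugars. Its values were 69 to 121 normalized counts (median 90) at 6 weeks and 198 to 243 (median 209) at 10 weeks, without overlap. It was 2.33-fold higher at 10 weeks (log2 fold change -1.22, SE 0.12, limma adjusted p = 0.000105), a fold that like those below is on the scale of log2(normalized count + 1).

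*Slc5a1* encodes SGLT1, the sodium-glucose carrier known best from the gut, which takes up glucose and galactose. It was measured at 470 to 644 normalized counts (median 513) at 6 weeks and 684 to 2198 (median 1116) at 10 weeks. Every 6-week rat lay below every 10-week rat, and the highest value belonged to rat 81. The gene was 2.11-fold higher at 10 weeks (log2 fold change -1.08, SE 0.22, limma adjusted p = 0.00693). Without rat 81 the log2 fold change was -0.91 (limma adjusted p = 0.00323).

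*Slc5a8* encodes SMCT1, the sodium-coupled carrier of lactate, pyruvate and short-chain fatty acids. Its values of 1039 to 1703 normalized counts (median 1120) at 6 weeks and 2049 to 3158 (median 2363) at 10 weeks did not overlap either. The 1.99-fold higher level at 10 weeks passed the test (log2 fold change -0.99, SE 0.14, limma adjusted p = 0.00066). All 10-week rats lay above all 6-week rats for 3 of 70 members, these Slc5 genes, and for 2.78% of all genes.

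*Slc6a6* encodes TAUT, which carries taurine, an osmolyte, together with sodium and chloride. It ranged over 311 to 487 normalized counts (median 382) at 6 weeks and 441 to 638 (median 577) at 10 weeks. In 5 of 6 rats at 6 weeks it lay below all 10-week rats, and it was 1.45-fold higher at 10 weeks (log2 fold change -0.54, SE 0.13, limma adjusted p = 0.0147). All 4 genes passed in each of the 13 fits that left out 1 rat.

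**Figure D2:**
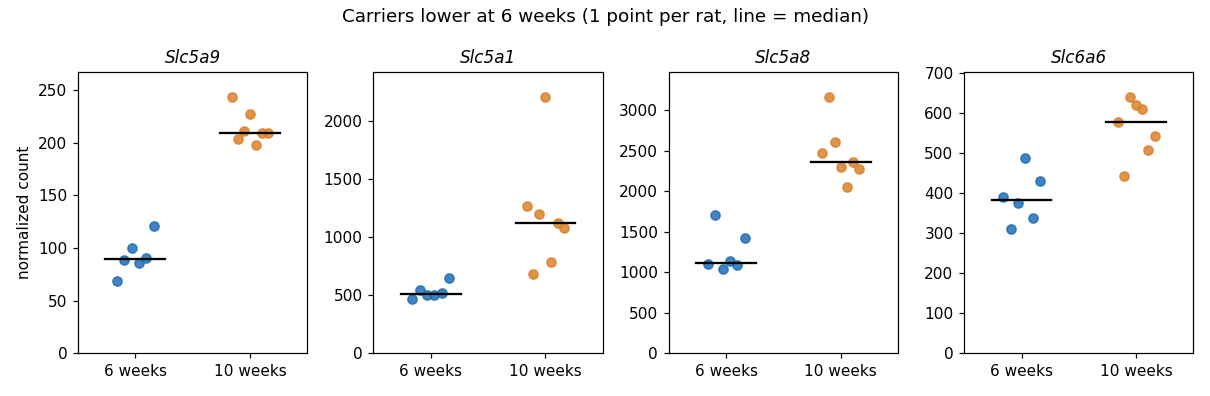
Normalized counts of *Slc5a9*, *Slc5a1*, *Slc5a8* and *Slc6a6* in each rat at 6 weeks (6 rats) and at 10 weeks (7 rats), with the median of each age as a line. The ages do not overlap for the 3 Slc5 genes, and 1 rat at 6 weeks reaches into the 10-week values of *Slc6a6*.

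Markers of luminal epithelial cells, in which nutrient uptake for secretion takes place, were measured beside these carriers. Of 10 luminal markers, *Epcam* (log2 fold change -0.39) and *Cdh1* (-0.47) passed with lower values at 6 weeks and the others did not pass. Their summed level was 45072 to 70856 normalized counts at 6 weeks and 64009 to 87387 at 10 weeks, so the ages overlapped. Of 9 basal markers 1 was lower at 6 weeks. The part of these cells in the lower carrier values was not tested.

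Amino acid carriers, which are 35 of the 70 members, made up 7 of the 10 members that were higher within WOS. The Slc38 family takes up small neutral amino acids such as glutamine and alanine with sodium, and *Slc38a1*, *Slc38a2* and *Slc38a4* lie next to each other on chromosome 7, with no other gene of the table between them in RefSeq. *Slc38a4*, which encodes SNAT4, had 103 to 198 normalized counts (median 119.5) at 6 weeks and 19 to 82 (median 50) at 10 weeks, and no value at 10 weeks reached those at 6 weeks. It was 2.69-fold higher at 6 weeks (log2 fold change 1.43, SE 0.28, limma adjusted p = 0.00574), with a log2 fold change of 1.21 without rat 78, which had the lowest value.

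*Slc38a1*, which encodes SNAT1, showed a smaller difference. It had 131 to 193 normalized counts (median 174) at 6 weeks and 101 to 140 (median 124) at 10 weeks, and 5 of 6 rats at 6 weeks lay above all 10-week rats. The 1.36-fold higher level at 6 weeks passed (log2 fold change 0.44, SE 0.12, limma adjusted p = 0.0249). It missed the threshold by limma without rat 71 (adjusted p = 0.0559), without rat 84 (adjusted p = 0.0553) and without rat 72 (adjusted p = 0.0508).

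*Slc38a2*, which encodes SNAT2 and is known to be induced when amino acids are scarce, lies between these genes and did not follow them. It was measured at 16686 to 21047 normalized counts (median 18807.5) at 6 weeks and 16941 to 23038 (median 18908) at 10 weeks, and the ages overlapped almost fully. No difference passed the test (log2 fold change -0.0040, 95% interval -0.23 to 0.22, limma adjusted p = 0.983).

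*Slc38a10*, a less studied member of the family, had 584 to 946 normalized counts (median 785) at 6 weeks and 286 to 605 (median 410) at 10 weeks. All but 1 of the 6-week rats lay above all 10-week rats, and the gene was 1.71-fold higher at 6 weeks (log2 fold change 0.78, SE 0.20, limma adjusted p = 0.0195). It passed in each fit that left out 1 rat.

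Carriers of charged amino acids followed. *Slc1a3* encodes GLAST, a glutamate and aspartate carrier best known from glia. It was found at 170 to 303 normalized counts (median 198.5) at 6 weeks and 76 to 155 (median 118) at 10 weeks, without overlap, and was 1.89-fold higher at 6 weeks (log2 fold change 0.92, SE 0.19, limma adjusted p = 0.00714). *Slc7a3* encodes CAT3, a carrier of arginine and lysine, and had 46 to 133 normalized counts (median 104.5) at 6 weeks and 35 to 68 (median 51) at 10 weeks. Rat 80, at the lowest value, was the single 6-week rat within the 10-week range, and the 1.98-fold difference passed (log2 fold change 0.98, SE 0.23, limma adjusted p = 0.0134).

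For both called carriers of small neutral amino acids outside the Slc38 family, passing the threshold depended on which rats were used. *Slc6a9* encodes GlyT1, the glycine carrier, and ranged over 359 to 565 normalized counts (median 391) at 6 weeks and 236 to 399 (median 303) at 10 weeks, with 3 of 6 rats at 6 weeks above all 10-week rats. It was 1.37-fold higher at 6 weeks (log2 fold change 0.46, SE 0.14, limma adjusted p = 0.0415), but of 13 fits that left out 1 rat it passed in 3, those without rat 81, 83 or 86. The limma adjusted p in the other fits reached 0.074, without rat 74. Over the 13 fits the log2 fold change of *Slc6a9* stayed between 0.37 and 0.52. *Slc7a10* encodes Asc-1, a light chain for alanine, serine and glycine that is known on fat cells. It had 12 to 25 normalized counts (median 14.5) at 6 weeks and 0 to 8 (median 7) at 10 weeks, so that the ages did not overlap but all values were low. It was 2.77-fold higher at 6 weeks (log2 fold change 1.47, SE 0.45, limma adjusted p = 0.0429) and passed in 3 of the 13 fits, without rats 78, 81 or 85. Without rat 78, which was at 0, the log2 fold change fell to 1.04 (limma adjusted p = 0.00182), and without rat 84 the limma adjusted p was 0.0954.

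Of the sugar carriers, 2 with low values were higher within WOS. *Slc2a10*, the glucose transporter GLUT10, which lies on inner membranes, had 10 to 54 normalized counts (median 20) at 6 weeks and 2 to 12 (median 5) at 10 weeks. In 4 of 6 rats at 6 weeks it lay above all 10-week rats, and the 3.54-fold difference passed in all fits that left out 1 rat (log2 fold change 1.83, SE 0.45, limma adjusted p = 0.0171). *Slc5a10* encodes SGLT5, a sodium-coupled carrier of mannose and fructose known from kidney. Its values of 4 to 16 normalized counts (median 5.5) at 6 weeks and 1 to 6 (median 3) at 10 weeks overlapped and were near the lower end of the scale. The 2.28-fold difference (log2 fold change 1.19, SE 0.37, limma adjusted p = 0.0456) passed in 2 of the 13 fits, without rats 78 or 86, and its limma adjusted p was 0.0821 without rat 80.

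*Slc16a12*, which carries creatine despite its place in the monocarboxylate family, had 16 to 38 normalized counts (median 29) at 6 weeks and 6 to 15 (median 12) at 10 weeks. No rats of the 2 ages overlapped, and it was 2.44-fold higher at 6 weeks (log2 fold change 1.29, SE 0.24, limma adjusted p = 0.00353). Together with *Slc1a3*, *Slc38a4* and *Slc7a10* it made 4 members with all 6-week rats above all 10-week rats, a pattern of 3.29% of all genes. In either direction 7 of 70 members and 6.07% of all genes had ages without overlap.

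**Figure D3:**
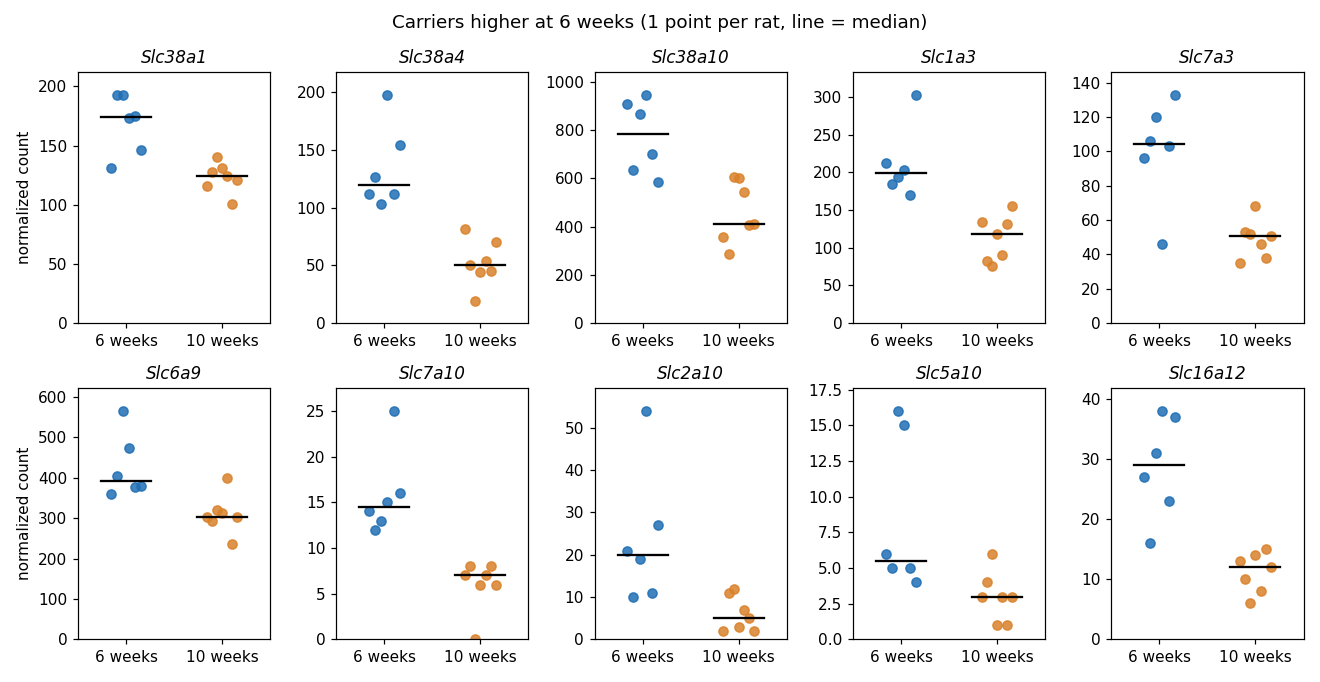
Normalized counts of the 10 carriers higher at 6 weeks, in each rat of both ages, with the median of each age as a line. The ages do not overlap for *Slc38a4*, *Slc1a3*, *Slc7a10* and *Slc16a12*. *Slc38a1*, *Slc38a10*, *Slc7a3*, *Slc2a10*, *Slc6a9* and *Slc5a10* have 6-week rats within the 10-week range.

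Several markers of stromal, blood and dividing cells were also higher at 6 weeks. Of 7 fibroblast markers, 4 were higher at 6 weeks, namely *Col3a1*, *Col1a1*, *Lum* and *Pdgfrb*, while *Pdgfra*, *Dpt* and *Dcn* did not pass. The summed level of all 7 was 107812 to 223889 normalized counts against 20012 to 56241 at 10 weeks. The collagen genes held the largest values, with *Col3a1* at 69539 to 135326 and *Col1a1* at 27256 to 77553 at 6 weeks. At 10 weeks they were at 10482 to 30630 and 4386 to 18939. All 6 mast cell markers were higher at 6 weeks (summed level 406 to 965 against 25 to 240), as were all 5 rows of red blood cell genes (1854 to 5679 against 254 to 1226) and all 10 genes of proliferating cells (2810 to 6075 against 355 to 1575). Of 4 adipocyte markers 2 were higher at 6 weeks, although the summed levels overlapped (190 to 525 against 182 to 572). Both had low values. *Adipoq*, the gene of adiponectin, was at 20 to 56 against 0 to 12 and *Plin1* at 4 to 19 against 0 to 6. *Cidec* and *Lipe* did not pass, with log2 fold changes of 0.50 and -0.38. The counts leave out listed markers that were not among the measured genes. Measured were 3 of 8 lymphocyte, 3 of 8 skeletal muscle and 4 of 8 adipocyte markers, and 4 of 8 red blood cell symbols. Of 7 endothelial markers and 3 lymphocyte markers 1 each was higher at 6 weeks, and none of 8 macrophage or 3 skeletal muscle markers passed. The part of these cells in the higher carrier values was not tested.

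Several carriers best known from dividing and secreting epithelium did not pass. *Slc7a5* (LAT1, large neutral amino acids) was measured at 2201 to 3399 normalized counts (median 2526) at 6 weeks and 2368 to 3303 (median 2564) at 10 weeks (log2 fold change -0.023, 95% interval -0.32 to 0.27, limma adjusted p = 0.926). Its heavy chain *Slc3a2* (CD98) had 3374 to 4318 normalized counts (median 3887) at 6 weeks and 3659 to 4862 (median 4508) at 10 weeks (log2 fold change -0.21, 95% interval -0.42 to 0.010, limma adjusted p = 0.177). The interval of *Slc7a5* lay within a log2 difference of 0.32 on either side, and that of *Slc3a2* lay mostly below 0.

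*Slc7a11* (xCT), another light chain of *Slc3a2* that exchanges cystine for glutamate, had 4628 to 8538 normalized counts (median 6669) at 6 weeks and 5501 to 8953 (median 7063) at 10 weeks (log2 fold change -0.061, 95% interval -0.38 to 0.26, limma adjusted p = 0.806). *Slc7a1* (CAT1), the common carrier of arginine and lysine, had 4048 to 6200 normalized counts (median 5241) at 6 weeks and 4847 to 6649 (median 6399) at 10 weeks (log2 fold change -0.27, 95% interval -0.53 to -0.0036, limma adjusted p = 0.153). Its relative *Slc7a3*, described above, passed, while *Slc7a1* had a lower median at 6 weeks. *Slc7a8* (LAT2) ranged over 105 to 246 normalized counts (median 163.5) at 6 weeks and 114 to 374 (median 228) at 10 weeks (log2 fold change -0.46, 95% interval -1.01 to 0.10, limma adjusted p = 0.243).

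The exchangers of small neutral amino acids *Slc1a5* (ASCT2, glutamine) and *Slc1a4* (ASCT1) were likewise not called. *Slc1a5* had 846 to 1055 normalized counts (median 941.5) at 6 weeks and 609 to 946 (median 818) at 10 weeks (log2 fold change 0.24, 95% interval 0.0015 to 0.48, limma adjusted p = 0.156). *Slc1a4* had 567 to 828 normalized counts (median 640) at 6 weeks and 483 to 779 (median 733) at 10 weeks (log2 fold change -0.040, 95% interval -0.34 to 0.26, limma adjusted p = 0.866). The other amino acid carrier of the mammary epithelium fixed for naming, *Slc6a14* (ATB0,+, a carrier of neutral and cationic amino acids), had 746 to 1520 normalized counts (median 1231.5) at 6 weeks and 774 to 3960 (median 1336) at 10 weeks (log2 fold change -0.28, 95% interval -1.01 to 0.46, limma adjusted p = 0.61). Its highest value was that of rat 81, without which the log2 fold change was -0.025 (limma adjusted p = 0.953).

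Of the glucose transporters, *Slc2a1* (GLUT1), the main one of mammary epithelium, had 1756 to 2758 normalized counts (median 2347.5) at 6 weeks and 2436 to 3592 (median 2701) at 10 weeks. The 6-week median was the lower one, the ages overlapped and the test was not passed (log2 fold change -0.31, 95% interval -0.61 to -0.013, limma adjusted p = 0.141). *Slc2a4* (GLUT4), the insulin-regulated transporter of fat and muscle, had 12 to 51 normalized counts (median 31.5) at 6 weeks and 22 to 44 (median 38) at 10 weeks (log2 fold change -0.18, 95% interval -0.87 to 0.51, limma adjusted p = 0.736). The sodium-coupled *Slc5a1* and *Slc5a9* passed where *Slc2a1* did not, although *Slc2a1* passed once a term for the first residual component was added (limma adjusted p = 0.0387). The difference between these genes was not tested.

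*Slc16a1* (MCT1), which lets lactate and pyruvate pass with protons, had 1148 to 1490 normalized counts (median 1314) at 6 weeks and 1200 to 1778 (median 1545) at 10 weeks (log2 fold change -0.20, 95% interval -0.44 to 0.031, limma adjusted p = 0.218). *Slc16a3* (MCT4), the lactate exporter of glycolytic cells, had 30 to 111 normalized counts (median 39.5) at 6 weeks and 32 to 83 (median 59) at 10 weeks (log2 fold change -0.22, 95% interval -0.88 to 0.44, limma adjusted p = 0.655). Neither passed, and the monocarboxylate class ranged from -1.42 to 1.19 in log2 fold change. Both ends were orphan members singled out after their values were seen. The lower end was *Slc16a4*, at 0 to 45 normalized counts (median 27) at 6 weeks and 32 to 65 (median 48) at 10 weeks (log2 fold change -1.42, 95% interval -2.97 to 0.13, limma adjusted p = 0.195). Its 0 was that of rat 80, without which the log2 fold change was -0.60 (limma adjusted p = 0.0806). The upper end was *Slc16a14*, at 11 to 27 normalized counts (median 18.5) at 6 weeks and 1 to 15 (median 9) at 10 weeks (log2 fold change 1.19, 95% interval 0.34 to 2.03, limma adjusted p = 0.0558). It passed without rat 74 (limma adjusted p = 0.0453) and without rat 81, at the lowest value (log2 fold change 0.84, limma adjusted p = 0.0161).

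**Figure D4:**
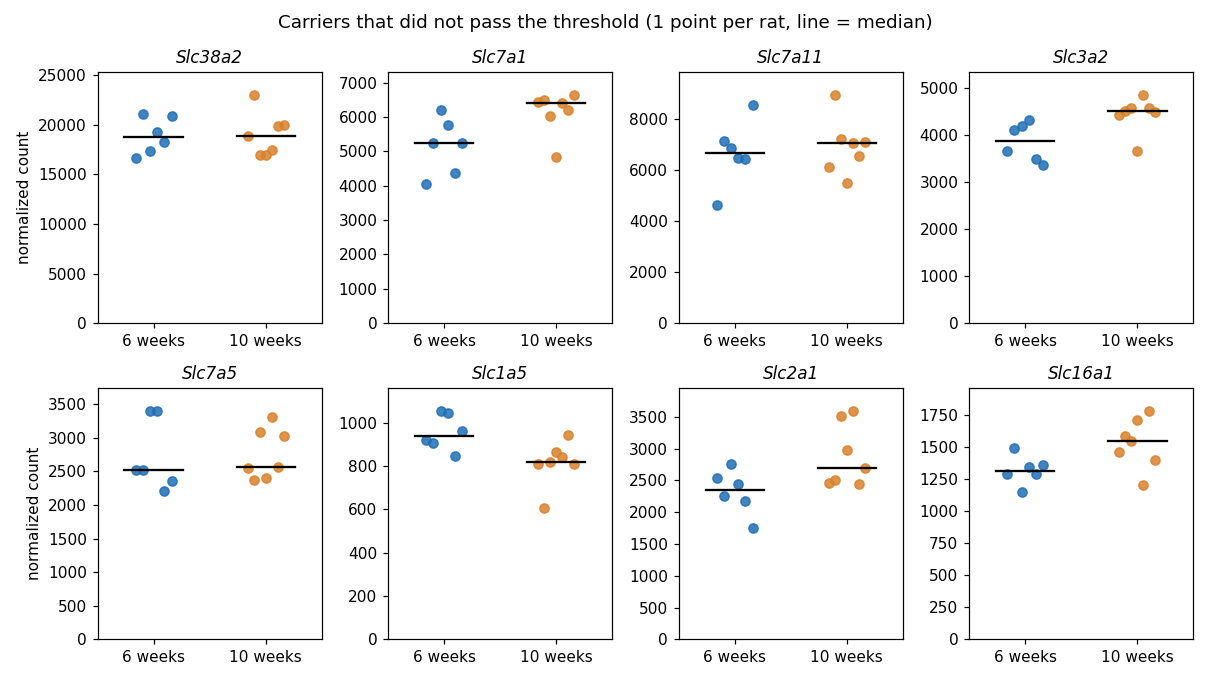
Normalized counts of *Slc38a2*, *Slc7a1*, *Slc7a11*, *Slc3a2*, *Slc7a5*, *Slc1a5*, *Slc2a1* and *Slc16a1* in each rat of both ages, with the median of each age as a line. The 2 ages overlap for all 8 genes, none of which passed the threshold.

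All 4 fatty acid carriers of the Slc27 family, which take up long-chain fatty acids and link them to coenzyme A, had log2 fold changes above 0, from 0.15 to 0.94, and none passed. *Slc27a4* had 161 to 424 normalized counts (median 283) at 6 weeks and 192 to 391 (median 232) at 10 weeks (log2 fold change 0.15, 95% interval -0.33 to 0.63, limma adjusted p = 0.681). *Slc27a1* had 169 to 343 normalized counts (median 268) at 6 weeks and 94 to 328 (median 204) at 10 weeks (log2 fold change 0.41, 95% interval -0.24 to 1.06, limma adjusted p = 0.369). *Slc27a3* showed the largest difference of the 4, with 46 to 98 normalized counts (median 65.5) at 6 weeks and 18 to 94 (median 32) at 10 weeks (log2 fold change 0.94, 95% interval 0.25 to 1.62, limma adjusted p = 0.0619). Its highest 10-week value came from rat 81, and without that rat it passed (log2 fold change 1.18, limma adjusted p = 0.00465).

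Of the carriers of other substrates, *Slc6a8*, the creatine carrier of the plasma membrane, had 518 to 855 normalized counts (median 676) at 6 weeks and 639 to 952 (median 817) at 10 weeks (log2 fold change -0.26, 95% interval -0.57 to 0.049, limma adjusted p = 0.23). *Slc2a9*, a urate transporter singled out after its values were seen, had 49 to 120 normalized counts (median 106.5) at 6 weeks and 91 to 226 (median 148) at 10 weeks (log2 fold change -0.74, 95% interval -1.28 to -0.20, limma adjusted p = 0.0605), and passed without rat 78 (limma adjusted p = 0.0318). *Slc7a6os*, the gene that is no carrier, had 388 to 461 normalized counts (median 439) at 6 weeks and 279 to 532 (median 362) at 10 weeks (log2 fold change 0.18, 95% interval -0.11 to 0.48, limma adjusted p = 0.384). Its neighbour *Slc7a6* (y+LAT2, an exchanger of cationic and neutral amino acids), singled out after its values were seen, had 698 to 1141 normalized counts (median 897.5) at 6 weeks and 855 to 1274 (median 1109) at 10 weeks (log2 fold change -0.26, 95% interval -0.54 to 0.028, limma adjusted p = 0.201).

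Rat 81 stood apart in the 10-week group. Its milk protein genes summed to 221139 normalized counts, while those of the other 10-week rats did not exceed 48910 and those of the 6-week rats lay between 9277 and 57071. None of the 6 milk protein genes passed between the ages. This rat had the highest values of *Slc5a1* and *Slc6a14* and the lowest 10-week values of *Slc3a2* and *Slc7a1*. It was also the lowest 10-week rat for *Slc1a4* and *Slc7a11*, and lay within the range of the others for *Slc2a1* and *Slc16a1*. No such comparison of single rats was planned beforehand. *Slc38a3* (SNAT3, a glutamine carrier), singled out after its values were seen, was at 117 in rat 81 and at 17 to 36 in the other 10-week rats. With 33 to 137 normalized counts (median 60.5) at 6 weeks it did not pass (log2 fold change 1.07, 95% interval 0.095 to 2.05, limma adjusted p = 0.123), but it did without rat 81 (log2 fold change 1.40, limma adjusted p = 0.0158). The relation of the milk protein level to the carriers was not tested.

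**Figure D5:**
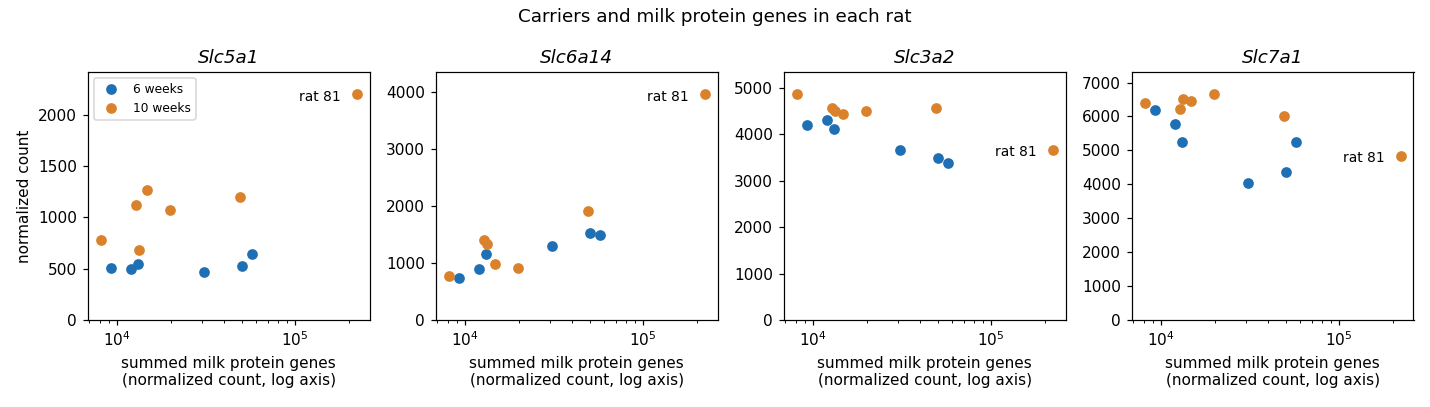
Normalized counts of *Slc5a1*, *Slc6a14*, *Slc3a2* and *Slc7a1* on the vertical axes against the summed normalized counts of 6 milk protein genes on a log scale, 1 point per rat. Rat 81, at 221139, lies to the right of the other 12 rats, with the highest *Slc5a1* and *Slc6a14* values.

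Genes that act with the carriers were counted from fixed lists. Of 7 carrier partners and trafficking genes, *Bsg* (basigin, the chaperone of Slc16 proteins at the membrane) was higher at 6 weeks, at 1674 to 2617 normalized counts (median 2089) against 1031 to 1670 (median 1260), with a log2 fold change of 0.68 and a limma adjusted p of 0.00998. The arrestins *Arrdc4* and *Txnip*, which remove glucose transporters from the membrane, were lower at 6 weeks. *Arrdc4* had 1993 to 2649 (median 2392) against 2917 to 4977 (median 4566), without overlap (log2 fold change -0.87, limma adjusted p = 0.00123), and *Txnip* had a log2 fold change of -0.54 (limma adjusted p = 0.0369).

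Of 6 enzymes that handle glucose and lactate, *Ldhb*, a lactate dehydrogenase subunit, was higher at 6 weeks (log2 fold change 0.80, limma adjusted p = 0.0481). *Hk2*, the hexokinase that traps glucose in the cell, was lower (log2 fold change -0.43, limma adjusted p = 0.0367), as was *Pdk4*, a kinase that holds back pyruvate oxidation (log2 fold change -2.55, limma adjusted p = 0.000206). Of 10 fatty acid uptake and binding genes, *Gpihbp1*, which holds lipoprotein lipase on capillaries, was higher at 6 weeks (log2 fold change 1.74, limma adjusted p = 0.00142) and *Fabp5*, a fatty acid binding protein, was lower (log2 fold change -0.63, limma adjusted p = 0.032).

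Of 9 genes of the amino acid response, by which cells answer a lack of amino acids, none was higher at 6 weeks, and *Asns*, which makes asparagine (log2 fold change -0.40, limma adjusted p = 0.0423), and *Sesn2*, a leucine sensor (log2 fold change -0.36, limma adjusted p = 0.0384), were lower. Of 11 genes by which mTORC1 senses amino acids, *Lamtor3*, a subunit of the lysosomal Ragulator complex, was higher at 6 weeks (log2 fold change 0.43, limma adjusted p = 0.0191) and the others did not pass.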

How the data were processed

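Per-rat values are scores, namely counts that the authors estimated with RSEM 1.2.22, scaled per library and deposited rounded to whole numbers. The methods name TPM, but the column totals differ between rats. The submitters' processing notes name rn5, while the paper names rn6 for its Hi-C maps, and the annotation release is not given in the sources used here. The deposited table also holds the authors' edgeR comparison (log2 fold change, mean abundance on the log2 scale, a likelihood ratio as score, p-value, FDR and status) and a word on nuclear or cytoplasmic location with 2 score columns, none of which was used. All 13 per-rat columns were used.

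The ages were compared on log2(value + 1) by limma (version 3.58.1, R 4.3.3), with no covariate, two-sided, adjusted after Benjamini-Hochberg over 14790 genes, all of which had a mean of at least 1. In a simulated table of 14790 genes 84 of 100 genes changed by a log2 of 1 were called. So were 100 of 100 changed by 2 and 13 of 14590 unchanged ones. The simulation used the same dispersion for every gene and changed only genes above a minimum mean. It therefore does not cover members with low values, such as *Slc2a10*, *Slc5a10*, *Slc7a10* and *Slc16a12*. Counts and motif searches were made in Python 3.11.15 with pandas 2.3.3. Named genes were all members called, a fixed set of 21 carriers, and the member with the highest mean in each class, beside 5 members named after their values were seen. Genes of the pathway lists were named where called. Of the marker lists some genes were named, called or not, and the others were given only as counts. The members, lists and rule were chosen with earlier results of these data known. Each alternative changed 1 choice, among them the scaling (by upper quartile, library size or median ratio), the pseudocount (0.1), the minimum (none, or 10 for each rat), the variance model (sample quality weights or limma-trend), a term for the first residual component, and the rats used (each left out in turn, or rats 78 and 80 together). All 70 members matched RefSeq by symbol. The Hi-C and human data were not analysed here.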

Additional observations from a re-analysis of the deposited data

Results flagged for a closer look

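For 37 named genes, the highest or lowest rat of each age was set against the gap expected in a group of that size (Dixon's test), and 10 of 74 groups stood out. Among the 32 genes named by rule, it was 7 of 64 groups, 3 of them for rat 81, where chance gives about 1 in 20. The groups share the same rats and are not independent, so no excess over chance can be read from this. *Slc38a3*, *Slc16a14* and *Slc16a4* were named after their values were seen. At 6 weeks this was rat 80, for *Slc7a3* at 46 normalized counts (others 96 to 133) and for *Slc16a4* at 0 (21 to 45). Among the 10-week rats, rat 81 was low for *Slc1a4* at 483 (others 656 to 779), *Slc3a2* at 3659 (4438 to 4862), *Slc7a1* at 4847 (6016 to 6649) and *Slc16a14* at 1 (8 to 15), and high for *Slc38a3* at 117 (17 to 36). Rat 78 was low for *Slc38a4* at 19 (others 44 to 82) and for *Slc7a10* at 0 (6 to 8), and rat 74 was low for *Slc1a5* at 609 (808 to 946).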

How the results depend on the processing

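The main fit called 10 members higher at 6 weeks and 4 higher at 10 weeks. Under the 3 other scalings, the pseudocount of 0.1, the minimum of 10 for each rat and limma-trend, these numbers stayed within 1.5 times. Dropping the minimum mean could change nothing, since all 14790 genes met it. Sample quality weights gave 16 and 10, and the first residual component as a term gave 7 higher at 10 weeks, with 5647 and 3526 genes called in the whole table, beside 2381. Leaving out 1 rat at a time gave 6 to 12 members higher at 6 weeks and 4 to 5 higher at 10 weeks. The lowest count, 6, came without rats 71, 72 or 84. Without these rats, in that order, 1769, 1636 and 1488 genes were called in the whole table, beside 2381 in the main fit. The whole-table count ranged from 1411 (without rat 70) to 2680 (without rat 81). In all 13 such fits 10 members were called, *Slc5a1*, *Slc5a8*, *Slc5a9*, *Slc6a6*, *Slc1a3*, *Slc2a10*, *Slc7a3*, *Slc16a12*, *Slc38a4* and *Slc38a10*. With at least 10 normalized counts in every rat, *Slc2a10*, *Slc5a10*, *Slc7a10* and *Slc16a12* were not tested, and the median log2 fold change of the 52 members left was 0.023. The cause of the other changes was not tested.

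*Slc6a9* missed the threshold under median-ratio scaling (adjusted p = 0.0536), *Slc7a10* with the pseudocount of 0.1 (0.148) and limma-trend (0.0535), and *Slc5a10* with both (0.0506 and 0.117) and without rats 78 and 80 together (0.0517), a setting chosen after seeing the data in which *Slc6a9* missed it too (0.0924). Of the named members not called, *Slc2a9*, *Slc16a14*, *Slc27a3* and *Slc7a6* passed both with the weights and with the residual component, *Slc3a2*, *Slc6a8*, *Slc7a1*, *Slc7a8* and *Slc38a3* with the weights but not the component, and *Slc2a1* with the component but not the weights. *Slc2a9* and *Slc27a3* also passed with the minimum of 10 for each rat, and *Slc2a9* with limma-trend. Among named genes the sign changed only for some that had not passed. Sample quality weights gave log2 fold changes of 0.11 for *Slc2a4* and 0.15 for *Slc6a14*, and library size scaling gave 0.0072 for *Slc1a4*, 0.025 for *Slc7a5* and 0.043 for *Slc38a2*. Leaving out 1 rat gave -0.036 to 0.043 for *Slc38a2*, -0.090 to 0.036 for *Slc7a5*, -0.14 to 0.040 for *Slc7a11*, -0.35 to 0.052 for *Slc2a4* and -0.12 to 0.0071 for *Slc1a4*. No paired analysis was possible because the rats of the 2 ages carry different numbers. Read depth is not known, so no limit for low values is given.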
